A study of Rattus norvegicus with 11 samples.

Results

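T cell and NK cell genes were followed in the striatum of rats with intracerebral hemorrhage. The set was defined by name and by no rule on measured values, but with earlier results of these data known. It holds Cd3e, Cd3d, Cd3g, Cd4, Cd8a, Nkg7, Gzmb, Prf1, Cd2 and Lck. Of the 10 genes, 9 were matched by symbol among the 30560 genes of the count table, and Cd4, the coreceptor of helper T cells, was not analysed here. Of these 9, 6 passed the filter on low counts and were tested among 15742 genes, and Nkg7, Gzmb and Prf1 did not pass it.

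RNA was measured on day 3 in 11 adult male Sprague-Dawley rats, with 1 library per rat. The 3 rats of the common hemorrhage group (IC) had received 0.2 U of bacterial collagenase VII-S in 1.0 μL of saline in the right striatum, and the 3 rats of the severe group (IS) 0.6 U in 3.0 μL. In the 3 rats of the aspiration group (IS-HA) the severe hemorrhage was followed by hematoma aspiration at 6 h. The 2 Normal rats had received neither collagenase nor aspiration, so the injection itself and the bleeding cannot be told apart in any comparison with Normal, and all comparisons with Normal share these 2 rats. Total counts per library ranged from 6701301 in IS-HA replicate 2 to 18817645 in IC replicate 3. The floor of detection was set at 3 counts, which corresponds to between 0.151 and 0.473 CPM (counts scaled to library size and normalized between libraries). The floor and the counting intervals given below cover counting error only. Striatal tissue was recognisable in every group: the summed CPM of 12 striatal neuron genes ranged from 8540 to 8920 in Normal, from 3150 to 6400 in IC, from 1690 to 4170 in IS and from 2090 to 3810 in IS-HA.

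T cells recognise peptides on MHC molecules through the T cell receptor, whose surface expression and signal depend on the CD3 chains. The coreceptors CD4 and CD8 bind MHC class II and class I and bring the kinase LCK to the receptor, and CD2 is an adhesion and costimulatory molecule of T cells and NK cells. Cytotoxic T cells and NK cells kill with granules that hold perforin and granzymes. Some of these names are not private to T cells: in rats CD8 has also been described on NK cells and on activated macrophages and microglia, and the healthy brain holds few lymphocytes. Levels are given as TPM, a share of all transcripts that is corrected for gene length and so can be compared between genes. Differences are given as log2 fold changes with their standard error from one edgeR quasi-likelihood fit over the 4 groups. A gene was called when its adjusted p was under 0.05 and its log2 fold change was at least 1 in size. In bulk tissue, a change in the number of cells of a type and a change in RNA per cell cannot be told apart.

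Of the 6 tested genes of the set, Cd8a had the largest fold changes against Normal, and Cd2 was the other gene called in more than 1 injured group. No CD3 chain exceeded 20 counts in any rat. For the 3 genes the results turn on, the window from 250 bases before to 50 bases after the annotated start is shown, taken from RefSeq on build GRCr8. Capitals mark 2 motifs searched on both strands, TGTGGT (the core bound by RUNX factors) and GAGGAA (a core bound by ETS factors such as PU.1). The Cd8a window is chr4:104923866-104924165 on the plus strand, that of Cd2 is chr2:191412610-191412909 on the minus strand, and that of Cd3e is chr8:54211721-54212020 on the minus strand.

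Cd8a: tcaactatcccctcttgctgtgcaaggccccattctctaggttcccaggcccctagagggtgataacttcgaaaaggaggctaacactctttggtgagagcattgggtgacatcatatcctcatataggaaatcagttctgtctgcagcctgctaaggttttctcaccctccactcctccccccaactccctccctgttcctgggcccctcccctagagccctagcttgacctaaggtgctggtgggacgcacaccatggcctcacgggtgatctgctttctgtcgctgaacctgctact
Cd2: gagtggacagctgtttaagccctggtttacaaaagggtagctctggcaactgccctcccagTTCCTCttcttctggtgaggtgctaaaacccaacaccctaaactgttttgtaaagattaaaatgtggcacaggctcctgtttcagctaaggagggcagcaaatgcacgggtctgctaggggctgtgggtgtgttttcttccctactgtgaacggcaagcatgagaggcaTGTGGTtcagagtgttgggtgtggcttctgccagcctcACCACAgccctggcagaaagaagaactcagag
Cd3e: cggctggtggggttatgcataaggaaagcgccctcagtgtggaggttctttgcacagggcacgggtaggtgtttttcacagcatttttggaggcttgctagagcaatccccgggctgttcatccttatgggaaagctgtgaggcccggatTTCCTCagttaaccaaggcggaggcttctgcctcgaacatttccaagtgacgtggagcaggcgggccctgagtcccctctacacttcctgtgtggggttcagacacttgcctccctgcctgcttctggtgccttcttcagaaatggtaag

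The Cd8a window held 0 matches of either motif. The Cd2 window held 2 matches of the RUNX core and 1 of the ETS core, which do not overlap, and the Cd3e window held 1 match of the ETS core. Of all 33469 windows of the same length, 17.3% held the RUNX core and 27.6% the ETS core, so these matches describe the letters and do not mark sites of binding. Of the other genes, Gzmb held 3 matches of the RUNX core, Nkg7 and Prf1 held 1 each, Lck held 1 in the first of its 2 windows, and Cd3d and Cd3g held 0 matches of either motif.

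**Figure D1:**
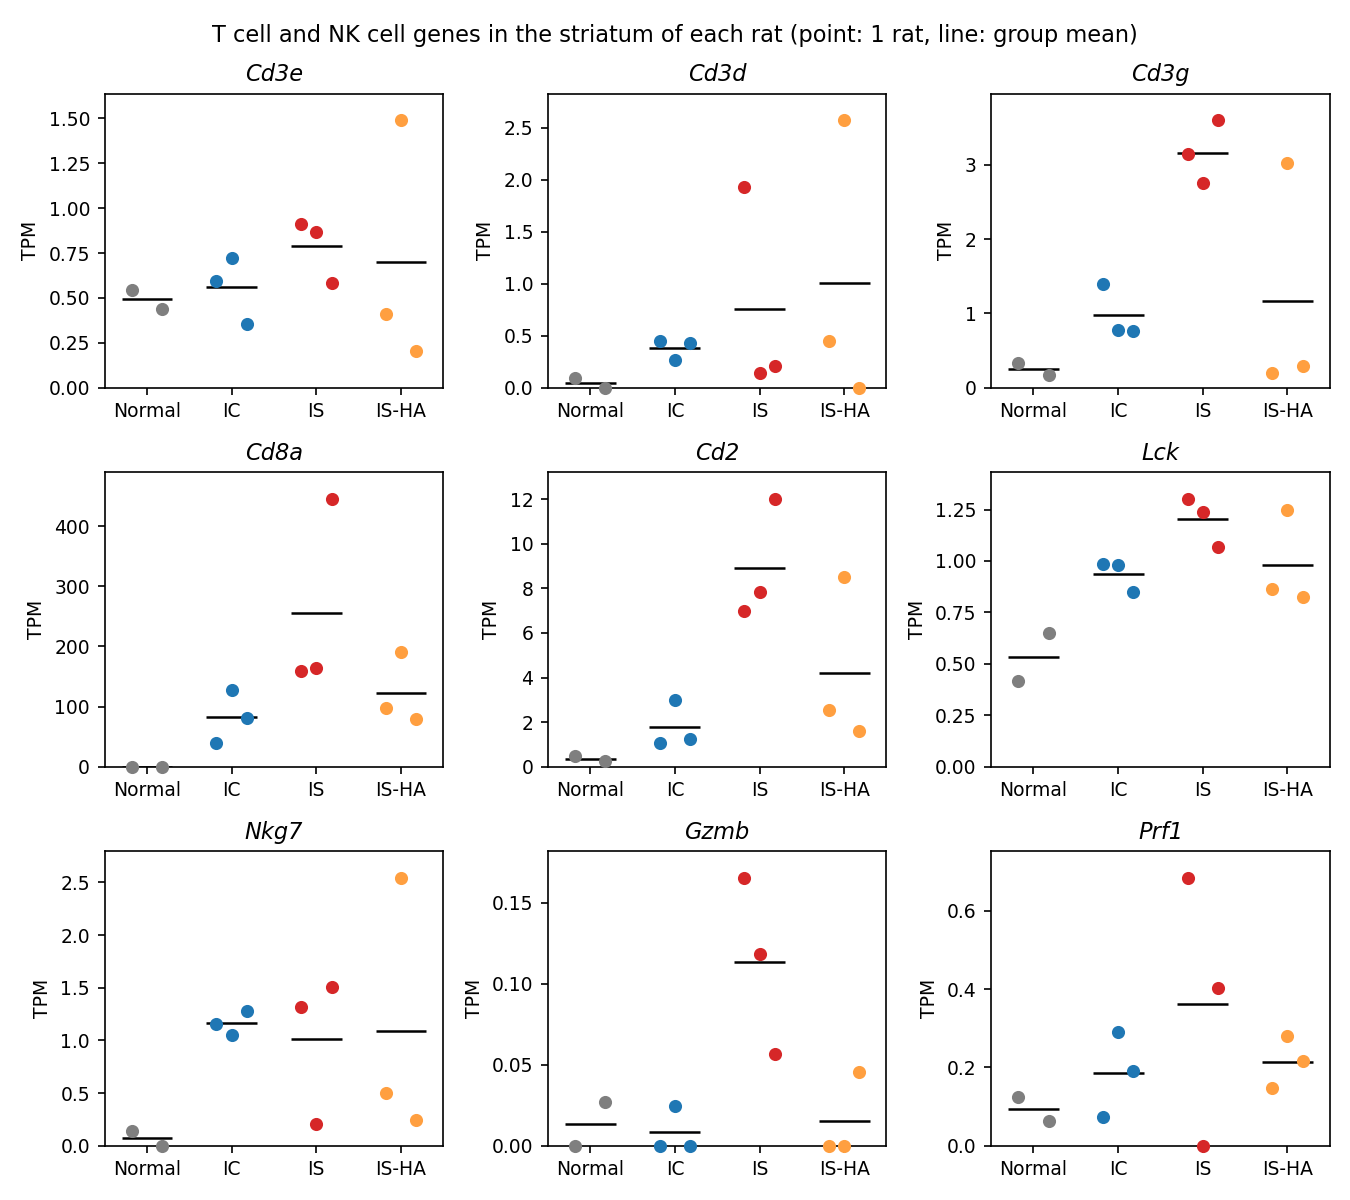
TPM of the 9 matched T cell and NK cell genes in each of the 11 rats, by group, each panel with its own linear scale from 0 (point: 1 rat, line: group mean). Cd8a reached 445 TPM in an IS rat against 0.0937 and 0.192 in the Normal rats, while Gzmb stayed at or under 0.165 TPM in every rat.

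The CD3 chains are the part of this set most particular to T cells. Cd3e, the epsilon chain, was counted 14 and 11 times in the Normal rats, 13, 20 and 6 times in IC, 15, 15 and 7 times in IS, and 9, 17 and 3 times in IS-HA, for replicates in the order of their numbers. In TPM this was 0.545 and 0.438 in Normal, 0.597, 0.724 and 0.355 in IC, 0.911, 0.869 and 0.585 in IS, and 0.412, 1.49 and 0.202 in IS-HA. The groups overlapped, and injured rats lay on both sides of the Normal rats. The log2 fold changes of Cd3e against Normal were 0.13 ± 0.72 in IC (SE, adjusted p = 0.918 by edgeR), 0.69 ± 0.73 in IS (adjusted p = 0.453) and 0.47 ± 0.75 in IS-HA (adjusted p = 0.646), and the sign of those of IC and IS-HA changed under other settings.

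Cd3g, the gamma chain, was counted 2 and 1 times in Normal, 7, 5 and 3 times in IC, 12, 11 and 10 times in IS and 1, 8 and 1 times in IS-HA. In TPM it stood at 0.336 and 0.172 in Normal, 1.39, 0.78 and 0.765 in IC, 3.14, 2.75 and 3.6 in IS, and 0.197, 3.02 and 0.29 in IS-HA. Every IS rat lay above every IC and Normal rat, and in IS-HA replicate 2 alone was as high as IS. Cd3g rose in IS against Normal, with a log2 fold change of 3.5 ± 1.07 (adjusted p = 0.0194 by edgeR), on 33 counts over 3 rats against 3 counts over 2 rats. The ratio of these normalized counts was 12.3, with a 95% counting interval from 3.85 to 62.5.

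Cd3d, the delta chain, was listed at 1 and 0 counts in Normal, 4, 3 and 3 in IC, 13, 1 and 1 in IS, and 4, 12 and 0 in IS-HA. IS replicate 2 and IS-HA replicate 2 held 13 and 12 of its 42 counts over the 11 rats, and the other IS rats lay at or under the floor. Its log2 fold changes against Normal were 2.55 ± 1.98 in IC, 3.63 ± 1.86 in IS and 3.90 ± 1.85 in IS-HA, with adjusted p of 0.388, 0.126 and 0.125 by edgeR. The ratio of its counts to the single Normal count was 7.29 in IC (95% counting interval 1.04 to 316), 16.7 in IS (2.57 to 705) and 16.3 in IS-HA (2.53 to 682), and the counts of 13, 1 and 1 in IS and of 4, 12 and 0 in IS-HA spread widely between rats.

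Cd8a (ENSRNOG00000007178), the alpha chain of the CD8 coreceptor, was counted 1 and 2 times in the Normal rats. It was counted 351, 1468 and 566 times in IC, 1094, 1175 and 2213 times in IS, and 889, 908 and 487 times in IS-HA. Its TPM was 0.0937 and 0.192 in Normal, 38.8, 128 and 80.6 in IC, 160, 164 and 445 in IS, and 98.0, 191 and 78.8 in IS-HA. The 9 injured rats lay above both Normal rats without overlap, every IS rat lay above every IC rat, and IS-HA overlapped with both IC and IS.

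Against Normal, Cd8a rose by a log2 fold change of 8.98 ± 1.17 in IC (adjusted p = 0.000585 by edgeR), 10.72 ± 1.2 in IS (adjusted p = 0.000103) and 9.67 ± 1.18 in IS-HA (adjusted p = 0.000292). These fitted values rest on 3 counts over the Normal rats and depend on how such counts are smoothed. The value in IS was 9.98 without IS replicate 4 and that in IS-HA 9.01 without IS-HA replicate 2, and both were still called. The ratio of normalized counts to Normal was 579 in IC (95% counting interval 198 to 2810), 1670 in IS (570 to 8090) and 774 in IS-HA (265 to 3760). The order of the group means was Normal with 0.143 ± 0.0692 TPM (SD, n = 2), IC with 82.4 ± 44.6 (n = 3), IS-HA with 123 ± 60.2 (n = 3) and IS with 256 ± 163 TPM (n = 3), and injured groups next to each other in this order had overlapping ranges.

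Cd8b encodes the beta chain, which pairs with the alpha chain on conventional cytotoxic T cells. It was listed at 0 counts in both Normal rats, at 69, 203 and 117 counts in IC, 204, 121 and 326 in IS, and 126, 119 and 78 in IS-HA. Against the floor of the Normal rats, 3 counts per library, it was at least 47.7-fold higher in IC, 136-fold in IS and 63.0-fold in IS-HA. In the injured rats the TPM of Cd8a was 7.60 to 15.3 times that of Cd8b.

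The level of Cd8a was set against the summed TPM of the 3 CD3 chains in the same rat. In the Normal rats this ratio was 0.0960 and 0.314, on 17 and 12 counts of the CD3 chains. It was 16.0, 72.3 and 51.9 in IC, 26.7, 43.6 and 101 in IS, and 92.7, 27.1 and 160 in IS-HA, on 4 to 40 counts of the CD3 chains per rat. Cd8a thus lay below the CD3 chains in both Normal rats and above them in all 9 injured rats.

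**Figure D2:**
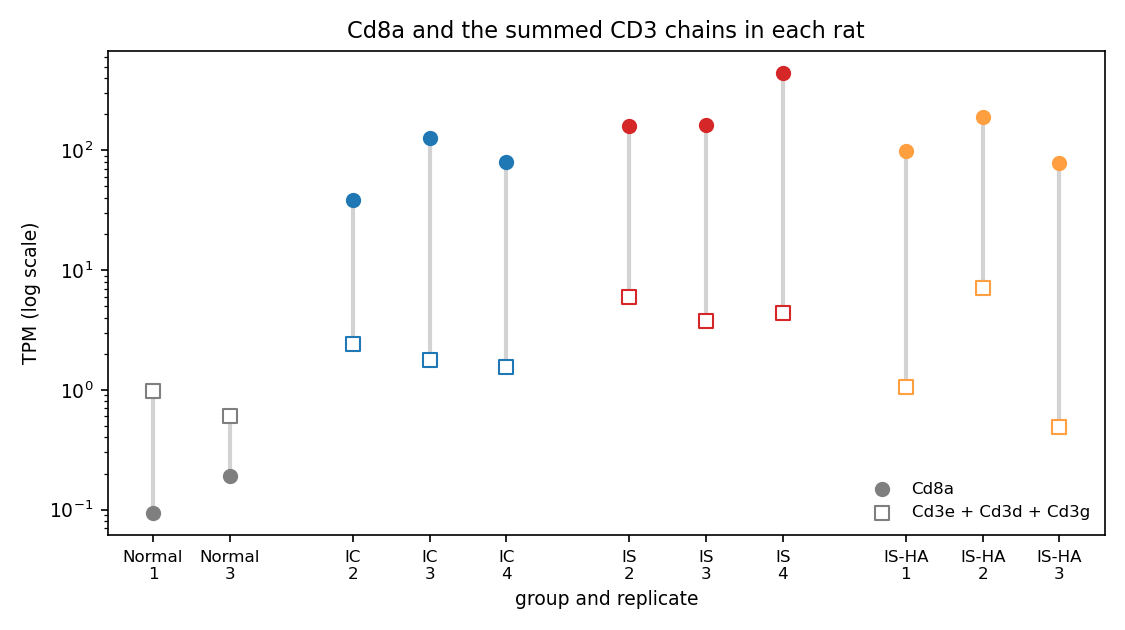
TPM of Cd8a (filled circles) and of Cd3e, Cd3d and Cd3g summed (open squares) in each rat, on a log axis, with a line joining the values of 1 rat. The Cd8a level exceeded the CD3 sum by 16.0 to 160 times in the injured rats and lay under it in the Normal rats.

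The marker genes of several other cell types were higher in the same rats. The summed CPM of 14 microglia and macrophage markers ranged from 332 to 465 in Normal, from 1860 to 2490 in IC, from 2860 to 3790 in IS and from 2270 to 3740 in IS-HA, and none of the 14 was at 0 in every rat. The 10 neutrophil markers summed to 5.64 and 5.97 CPM in Normal and to 146 to 450 CPM in the injured rats, and the 10 dendritic cell markers to 12.0 and 12.6 CPM in Normal and 37.5 to 241 CPM in the injured rats. IS replicate 4, the rat with the most Cd8a, also had the highest sums of the microglia and macrophage markers at 3790 CPM and of the dendritic cell markers at 241 CPM, and likewise of the T cell receptor and signalling list at 260 CPM, the NK cell list at 131 CPM and the B cell list at 10.5 CPM. The part of these cells in the Cd8a level was not tested. Levels were also taken relative to the summed microglia and macrophage markers of each rat, a scaling chosen after the data were seen. The mean log2 level then differed between IS and IC by 1.13 for Cd8a and 1.97 for Cd2. These are differences of means, unlike the edgeR log2 fold changes of 1.75 and 2.39. The scaling shifts both genes by the same amount, so it does not set them apart.

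Over the 9 injured rats, the genes whose normalized level followed that of Cd8a most closely were Htr2b, Spp1, Lgals3 and Fabp4 together with an Igsf7-like gene. The root mean square difference of their mean-centred log2 CPM from Cd8a was 0.175 to 0.229, where Cd8a itself varied by 1.0 around its mean. Spp1 and Lgals3 encode osteopontin and galectin-3, and Fabp4 a fatty acid binding protein. For Cd2 the closest genes were Pstpip1, Batf, Il1b, Des and S100a6, at 0.274 to 0.314 against a spread of 1.02. The likeness to Cd8a and to Cd2 was computed after their values had been seen. For Cd3e the closest genes were Mcoln2, S100a3, ENSRNOG00000067426, Ift27 and Myl6, at 0.195 to 0.213 against a spread of 0.549. Tyrobp, a signalling adaptor of myeloid and NK cells, ranked 94 for Cd8a, 40 for Cd2 and 5507 for Cd3e. Its differences were 0.381, 0.41 and 0.554, the last as large as the spread of Cd3e itself. These ranks depend on how much each gene varied, and Cd3e rests on 3 to 20 counts per injured rat. Tyrobp was the only gene of the microglia and macrophage list so ranked, and this ranking was not planned. In IS against IC, 11 of the 14 genes of that list had a log2 fold change above 0, with Tyrobp at 1.23. Itgam, P2ry12 and Tmem119 stood at -0.04, -0.67 and -0.74. The closest genes of Nkg7 (C5h8orf88, Opa3, Hist1h2bo, Itgb1bp2 and Snrpg) and of Gzmb (Ror2, Megf6, Haus8, Stbd1 and Mafk) rest on counts at or near the floor. All these likeness values share the 9 libraries and their depth, and no test was made of them.

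Lck (ENSRNOG00000009705), the kinase that starts signalling from the T cell receptor, was detected in every rat. Its TPM was 0.418 and 0.651 in Normal, 0.987, 0.981 and 0.847 in IC, 1.30, 1.24 and 1.07 in IS, and 0.866, 1.25 and 0.825 in IS-HA, on 21 to 53 counts per rat. All injured rats lay above the Normal rats, and the IS rats lay above the IC rats. Lck rose in IS against Normal by a log2 fold change of 1.19 ± 0.36 (adjusted p = 0.0196 by edgeR). Its differences from Normal were 0.76 ± 0.36 in IC (adjusted p = 0.158) and 0.88 ± 0.36 in IS-HA (adjusted p = 0.085).

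Cd2 (ENSRNOG00000015821) was at 0.458 and 0.234 TPM in Normal, 1.08, 2.98 and 1.22 in IC, 6.97, 7.84 and 12.0 in IS, and 2.56, 8.50 and 1.58 in IS-HA. The underlying counts were 4 and 2 in Normal, 8, 28 and 7 in IC, 39, 46 and 49 in IS, and 19, 33 and 8 in IS-HA. The injured rats did not overlap with Normal, IS did not overlap with IC, and IS-HA replicate 2 lay within the range of IS. Cd2 rose against Normal by a log2 fold change of 4.63 ± 0.95 in IS (adjusted p = 0.00286 by edgeR) and 3.55 ± 0.96 in IS-HA (adjusted p = 0.0189), and stood at 2.24 ± 0.98 in IC (adjusted p = 0.132). Without IS-HA replicate 2 the value of Cd2 in IS-HA was 2.41 ± 0.72 (adjusted p = 0.0312 by edgeR), and without Normal replicate 1 it was 4.14 in IS-HA, no longer called, and 5.23 in IS.

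The 3 genes of the set that belong to the killing machinery were barely detected. Nkg7, a granule membrane protein of NK cells and cytotoxic T cells, was counted 1 and 0 times in Normal, 7, 8 and 6 times in IC, 6, 1 and 5 times in IS, and 3, 8 and 1 times in IS-HA. Prf1, the pore-forming perforin, was counted 2 and 1 times in Normal, 1, 5 and 2 times in IC, 7, 0 and 3 times in IS, and 2 times in each IS-HA rat. Gzmb, granzyme B, had 11 counts over all rats, 8 of them in IS, and 5 rats were at 0. Most of these values lie at or under 3 counts. The ratio of Gzmb in IS to Normal was 8.93 with a counting interval from 1.2 to 396, and that of Prf1 was 3.72 with an interval from 0.958 to 21.0. That of Nkg7 was 15.3 in IC (2.46 to 633), 13.4 in IS (1.98 to 572) and 12.2 in IS-HA (1.81 to 522). The Nkg7 ratios all rest on the same single Normal count. The 9 other granzyme genes without Gzmm, which share sequence with Gzmb and could share reads with it, had at most 5 counts in a rat and 40 in all. Gzmm, named after its values had been seen, passed the filter. It was counted 11 and 12 times in Normal, 6, 5 and 5 times in IC, 28, 21 and 4 times in IS, and 11, 20 and 6 times in IS-HA. Its log2 fold change was 1.27 ± 0.77 in IS against Normal (adjusted p = 0.189 by edgeR) and 2.19 ± 0.74 in IS against IC (adjusted p = 0.163).

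In the comparison of IC with Normal, 1 of the 6 tested genes was called higher, Cd8a, where 10.9% of all genes tested were called higher. In IS against Normal 4 of 6 were called higher, Cd8a, Cd2, Cd3g and Lck, against 18.8% of all genes. In IS-HA against Normal 2 of 6 were called higher, Cd8a and Cd2, against 15.1% of all genes. The median log2 fold change of the 6 genes was 2.00 in IC, 3.57 in IS and 2.72 in IS-HA, where that of all genes tested was 0.00, 0.02 and 0.06. Cd8a, Cd2, Cd3g and Cd3d stood at 0.249 CPM or less in Normal and passed the filter on low counts through injured rats. These counts of calls and medians therefore partly reflect the filter. With the groups of 2 and 3 rats, the calls of Cd3g and Lck in IS were lost when either Normal rat was left out, leaving 2 genes called, and the call of Cd2 in IS-HA was lost as well, leaving 1. Taking the 9 injured rats together, Cd8a, Cd2 and Lck lay above both Normal rats without overlap, 3 of the 6 tested genes, where 25.9% of all genes tested did so. The two-sided exact permutation test of their mean log2(CPM + 0.5) gave p = 0.0364 for each of these 3 genes, the smallest p that 9 rats against 2 allow. Any gene higher in the injured rats without overlap gets this p, so it adds nothing to the separation. The exact p were not adjusted over the genes. The same p for Nkg7 is no ranking of its level, because 1 Normal rat, IS replicate 3 and IS-HA replicate 3 each had 1 count of it, under the floor, and only their library sizes set them apart. For the other 5 genes the exact p lay between 0.109 and 0.727.

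**Figure D3:**
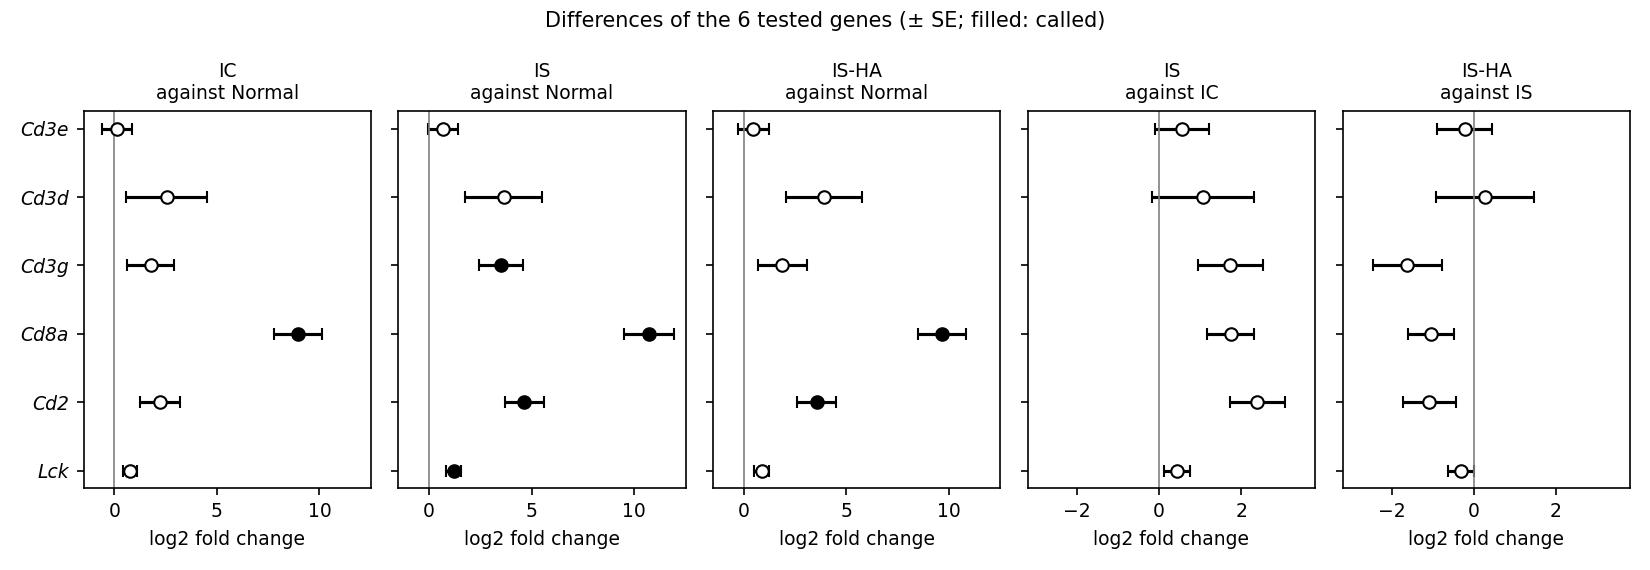
Log2 fold changes with standard errors of the 6 tested genes in the 5 comparisons, with filled points for called genes (the 2 panels on the right have a narrower axis). Cd8a stands at 8.98 to 10.72 against Normal, while no gene is called in IS against IC or in IS-HA against IS.

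Severity was read from IS against IC, groups that differ in both the dose of collagenase and the injected volume. None of the 6 tested genes was called by edgeR, where 0.0% of all 15742 genes were called in either direction. At an unadjusted p under 0.05 there were 3, Cd2, Cd8a and Cd3g, where 22.2% of all genes passed that limit. All 6 log2 fold changes were above 0, with a median of 1.41 where that of all genes was 0.00. Cd3g and Cd3d, at or under 0.459 CPM in IC, passed the filter on low counts through rats of IS and IS-HA. The shared sign and the median are therefore no test of severity. The fold changes were 1.75 ± 0.57 for Cd8a (adjusted p = 0.162), 2.39 ± 0.67 for Cd2 (adjusted p = 0.148), 1.74 ± 0.78 for Cd3g (adjusted p = 0.223) and 0.43 ± 0.31 for Lck (adjusted p = 0.402). Every IS rat lay above every IC rat for Cd8a, Cd2, Cd3g and Lck, and 19.2% of all genes tested did so. An exact test of 3 rats against 3 could not go below p = 0.1.

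The calls of IS against IC differed with the tool and with the rats in the fit. DESeq2's Wald test called Cd8a (log2 fold change 1.77, adjusted p = 0.0408) and Cd2 (2.45, adjusted p = 0.0214) higher in IS than IC, where it called 1.73% of genes higher. It gave no adjusted p for Cd3e, Cd3d and Cd3g, which it could therefore not call. Without IS-HA replicate 2, which is not part of the comparison but enters the shared estimate of the spread, edgeR called Cd8a (1.74, adjusted p = 0.0418), Cd2 (2.38, adjusted p = 0.0219) and Cd3g (1.74, adjusted p = 0.035), against 2.19% of all genes. Without IS replicate 4 the difference of Cd8a was 1.00 ± 0.51 with an adjusted p of 0.497 by edgeR.

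Aspiration was read from IS-HA against IS. By the study's methods the IS-HA rats also had a second anesthesia and a catheter passed through the hematoma. No group had these without aspiration, so their part cannot be told apart. None of the 6 genes was called by edgeR or had an unadjusted edgeR p under 0.05. Of all genes, edgeR called 0.00635%, and 8.94% passed the unadjusted limit. DESeq2's Wald test called none either, but it gave no adjusted p for Cd3g and Cd3d, which it could therefore not call. The log2 fold changes were -1.05 ± 0.56 for Cd8a (adjusted p = 0.575), -1.09 ± 0.65 for Cd2 (adjusted p = 0.602), -1.62 ± 0.84 for Cd3g (adjusted p = 0.569) and -0.31 ± 0.32 for Lck (adjusted p = 0.766), with a median over the 6 genes of -0.68 where that of all genes was 0.05. The groups overlapped for all 6 tested genes, where 5.42% of all genes tested were higher in every IS rat than in every IS-HA rat.

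A single rat set much of the spread within IS-HA. Replicate 2, the smallest library, had the highest TPM of its group for each matched gene except Gzmb, and its Cd3e and Cd3d levels of 1.49 and 2.57 TPM were the highest of all 11 rats. Its microglia and macrophage markers summed to 3740 CPM, against 2270 and 2440 CPM in the other IS-HA rats, and its neutrophil markers to 450 CPM against 250 and 254. Without this rat Cd2 fell by 2.23 and Cd3g by 3.73 on the log2 scale in IS-HA against IS, with adjusted p of 0.0455 and 0.0362 by edgeR, where 0.541% of all genes were called lower, and the difference of Cd8a was -1.72 ± 0.56 (adjusted p = 0.0796). Without it, the IS-HA group holds 2 rats.

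The wider T cell programme was described from lists of other genes. The T cell receptor and signalling list held 30 genes, of which 26 were measured and 17 tested. The receptor genes Trac, Trbc1 and Trbc2 were not analysed here, and the measured but untested genes had at most 13 counts in a rat. Of the 17 tested genes, 8 were called higher in IC, 9 in IS and 8 in IS-HA against Normal, and none was called lower. Genes low in Normal could pass the filter through injured rats, so calls and medians of this list and those below partly reflect the filter. The shares of all genes tested that were called higher were 10.9% in IC, 18.8% in IS and 15.1% in IS-HA, and all lists below stand against these shares. The median log2 fold change of the list was 1.53 in IC, 2.03 in IS and 1.36 in IS-HA, against 0.00, 0.02 and 0.06 over all genes tested. Beside Cd8b the largest differences in IS were those of Rhoh, a GTPase-like adaptor of blood cells, at 4.43 ± 0.67, Lcp2, the adaptor SLP-76 that myeloid cells and platelets also use, at 3.99 ± 0.49, and Icos, a costimulatory receptor of T cells, at 3.49 ± 0.70. Their adjusted p were 0.000552, 0.000177 and 0.00257 by edgeR. Zap70 and Lat, a kinase and an adaptor that act just below the T cell receptor, did not pass the test: Zap70 stood at 0.48 ± 0.57 (adjusted p = 0.495 by edgeR) and Lat at 0.97 ± 0.45 (adjusted p = 0.0929). Cd247, the zeta chain of the receptor complex, had 3 counts over the Normal rats, 5 over IC, 23 over IS and 8 over IS-HA. In IS it stood at 2.97 ± 1.45 (adjusted p = 0.11 by edgeR). Cd5 and Cd6 of the same list were called higher in each injured group. In IS they rose by 3.33 ± 0.94 and 2.03 ± 0.29 (adjusted p = 0.0137 and 0.000427 by edgeR), Cd5 on 29 counts against 3 in Normal. Il7r, Il2rb and Fyb1 were also called higher in IS. Zap70, Lat, Cd247 and the genes named after them were chosen for naming after their values had been seen.

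Of 9 tested transcription factors of T cells and NK cells, 3 were called higher in each injured group against Normal, where 10.9% to 18.8% of all genes were, and 1, Bcl11b, was called lower in IS and in IS-HA. Runx3, a factor of cytotoxic T cells and NK cells that is also active in myeloid cells, was at 0 counts in both Normal rats and at 71 to 199 counts per injured rat, at least 40.2-fold higher in IC, 92.7-fold in IS and 49.9-fold in IS-HA. Prdm1, which encodes BLIMP-1, rose by 2.83 ± 0.55 and Ikzf1, which encodes IKAROS, by 2.16 ± 0.32 on the log2 scale in IS (adjusted p = 0.00219 and 0.000493 by edgeR). Bcl11b, a factor of T cells that striatal medium spiny neurons also express, fell by 2.1 on the log2 scale in IS (SE 0.42, adjusted p = 0.00242 by edgeR), where 11 of 12 striatal neuron genes were called lower as well. In IS-HA it fell by 1.93 (adjusted p = 0.0067 by edgeR), with 10 of the 12 striatal neuron genes called lower. The part of neuronal RNA in the Bcl11b level was not tested. Foxp3, the factor of regulatory T cells, did not pass the test in IS, at 1.56 ± 0.67 (adjusted p = 0.0716), and Tbx21, the factor of type 1 responses, had at most 8 counts in a rat. Both were chosen for naming after their values had been seen.

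Of 29 listed NK cell receptor and granule genes, 26 were measured and 11 tested. The untested ones had at most 9 counts in a rat, and 3 were at 0 in every rat. Of the 11 tested, 5 were called higher in IC, 9 in IS and 6 in IS-HA against Normal. Over all genes tested, 10.9%, 18.8% and 15.1% were called higher. The medians were 2.31, 2.87 and 2.33, against 0.00, 0.02 and 0.06 over all genes. Tested genes at or near 0 counts in Normal passed the filter through injured rats, so these calls and medians partly reflect the filter. Klrb1b, an NK cell lectin receptor, was at 0 counts in Normal and at 3 to 16 counts in the injured rats, at least 3.99-fold higher in IC, 7.97-fold in IS and 2.51-fold in IS-HA. Cst7, the cystatin F of cytotoxic cells and activated microglia, rose by 6.32 ± 1.04 and Hcst, the adaptor DAP10 of NK cells and myeloid cells, by 5.57 ± 0.95 on the log2 scale in IS (adjusted p = 0.000867 and 0.00107 by edgeR). Ncr1, the NK cell receptor NKp46, was counted 1 and 0 times in Normal, 1, 2 and 6 times in IC, 15, 17 and 8 times in IS, and 6, 9 and 2 times in IS-HA. Its log2 fold change in IS was 5.06 ± 1.24 (adjusted p = 0.00699 by edgeR), and the ratio of its counts to Normal was 44.6 with a counting interval from 7.56 to 1810.

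**Figure D4:**
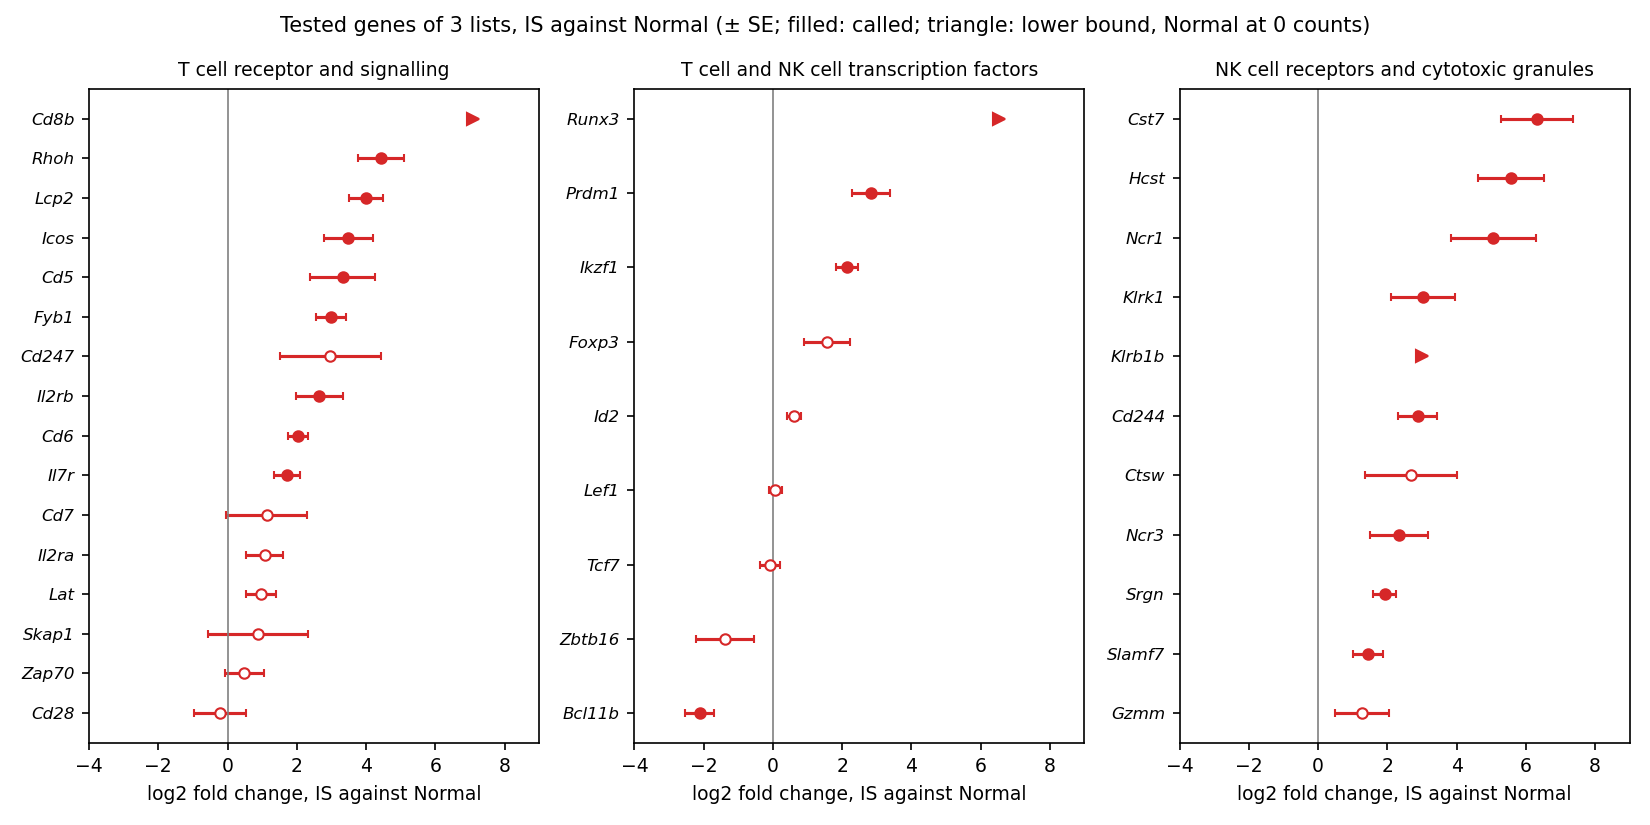
Log2 fold changes in IS against Normal of tested genes of 3 lists, with standard errors, filled for called genes, and triangles for lower bounds where both Normal rats were at 0 counts. In the T cell list Cd8b leads and Cd28 stands below 0, and among the transcription factors Runx3 leads and Bcl11b is the called gene below 0.

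Cytokines of T cells and NK cells lay near the floor, with a summed level of 0.639 to 3.79 CPM per rat. Of 14 measured, 4 were at 0 in every rat and 1, Ccl5, was tested, at 2.16 ± 1.14 in IS (adjusted p = 0.135 by edgeR). Ifng, the interferon of T cells and NK cells, had 1 count over the 11 rats and was chosen for naming after its values had been seen. Of 11 tested chemokines and receptors that guide lymphocytes, 7 were called higher in IC, 7 in IS and 8 in IS-HA, against 10.9%, 18.8% and 15.1% of all genes. Cxcr4 rose by 4.95 ± 0.71 and Ccr7, a homing receptor of T cells and dendritic cells, by 4.69 ± 0.75 on the log2 scale in IS. Cxcl16, the ligand of CXCR6, stood at 3.21 and 3.28 TPM in the Normal rats and at 31.2 to 78.0 TPM in the injured rats, and rose by 4.34 ± 0.27 in IS. Cxcr3, the receptor of CXCL9 and CXCL10, rose by 4.35 ± 0.84, and the adjusted p of these 4 genes by edgeR lay between 3.13e-05 and 0.00199.

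Lists of other blood cells were read the same way. Of the 13 B cell and plasma cell genes, 2 were tested, Fcrla and Jchain, and both were called higher in IS and Fcrla alone in IS-HA. The microglia and macrophage list had 13 of 14 genes called higher in IC, 12 in IS and 13 in IS-HA, and the neutrophil list 8 of 8 tested in each group. The dendritic cell list had 7 of 10 called higher in IC and 9 in IS and in IS-HA. None of the 3 tested red blood cell genes was called in any comparison. Cx3cr1 and Ccr7 each stand in 2 of the lists. No gene of any of the 11 lists was called in IS against IC or in IS-HA against IS. Of all genes tested, 0.0% and 0.00635% were called there, so this says nothing particular about the lists.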

How the data were processed

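RNA of the striatum of 11 rats was sequenced from stranded poly(A) libraries. The authors deposited raw read counts for each gene, as whole numbers. Beside them the authors deposited TPM, in which counts are corrected for gene length and scaled within each rat. The submitters' processing notes name fastp 0.20.0, FastQC 0.11.9, HISAT2 2.1.0, SAMtools 1.9 and featureCounts, and the build mRatBN7.2, and the settings of these tools are not given in the sources used here. Rats were grouped by their labels, and 0 columns of values were left unmatched.

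Counts were filtered by filterByExpr, normalized by TMM and tested with edgeR 4.0.16 (R 4.3.3) by the quasi-likelihood F test, fitting the 4 groups together and adjusting p over 15742 genes by Benjamini and Hochberg. A gene low in some groups could pass the filter through the groups where it was high. Counts of calls and medians over tested genes partly reflect this. The cutoffs on p and fold are those of the study's methods. Standard errors were approximated from the log2 fold change and F. The study names DESeq2, which was an alternative here. Single genes were compared by exact permutation tests in scipy 1.17.1, with a pseudocount of 0.5 CPM. Count ratios carry exact 95% intervals. The edgeR step was tested on simulated data. Python 3.11.15 with matplotlib 3.10.9 drew the plots. Motifs were searched in promoter windows of RefSeq on build GRCr8, and the counts were made on another build.

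The genes of the set and all lists were chosen with earlier results of these data known. Named were all genes of the set, up to 4 tested genes per list with the largest difference in IS against Normal, and the 5 genes most like Cd3e, Gzmb and Nkg7, and the text says where a gene was named otherwise. The value of 1 listed gene, which is included in the counts of its list, is not reported here. The alternatives were other normalizations and filters, limma 3.58.1 (voom, and trend on TPM), DESeq2 1.42.0, the groups compared alone, a replicate block and each rat left out in turn. Each library is a separate rat, so p-values measure the spread between rats.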

Additional observations from a re-analysis of the deposited data

How the results depend on the processing

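The calls of Cd8a against Normal held under all 22 alternatives. In IC against Normal, 2 genes of the set were called with only the groups compared, and leaving out single rats gave 1 to 2. In IS against Normal the replicate block gave 1, and leaving out single rats gave 2 to 4, with 2 without either Normal rat. In IS-HA against Normal only the groups compared and the replicate block gave 1 each, and leaving out single rats gave 1 to 2, with 1 without either Normal rat. In IS against IC, DESeq2's Wald test gave 2 and leaving out single rats 0 to 3, and in IS-HA against IS leaving out single rats gave 0 to 2. The highest of these, 3 and 2, came without IS-HA replicate 2, which also gave the 2 in IC against Normal. Rats with the same number are different animals. Across genes their residuals around the group mean correlated by 0.0311 on average between IC and IS (3 pairs, -0.384 to 0.394). Between IS and IS-HA they correlated by -0.302 (2 pairs). So few pairs cannot tell whether rats with the same number shared a batch.

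Of 632 values of single genes of the set under an alternative, 598 kept their sign and their side of the threshold. Of the rest, 12 lost and 9 gained a call, and 13 changed sign, all of them in CD3 chains. Cd3e was at 3 or more counts in all 11 rats. Its main log2 fold changes were 0.13 in IC and 0.47 in IS-HA against Normal, and -0.22 in IS-HA against IS, each smaller than its SE. The log2 difference of Cd3e in IC against Normal was -0.17 under the replicate block, -0.0655 without IC replicate 3, and from -0.0813 to 0.3613 over all single rats left out. In IS-HA against Normal that of Cd3e was -0.1083 by voom, -0.0061 under the replicate block and from -0.7514, without IS-HA replicate 2, to 0.9475 over single rats left out, and that of Cd3g was between -0.2222, without the same rat, and 2.5832. In IS-HA against IS that of Cd3e was 0.1565 without IS-HA replicate 1 and ranged from -1.4434 to 0.2559, the latter without replicate 3. Cd3d there was -0.3817 by voom, -0.0098 by limma on log2(TPM + 0.1), -0.0784 without IS replicate 4, and from -0.2641, without IS replicate 3, to 0.9074 over single rats left out. The cause of these changes was not tested.

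The differences of the injured from the Normal rats in mean log2(CPM + 0.5) ranged, with single rats left out, from 6.8113 to 7.2737 for Cd8a, 1.6793 to 2.0321 for Cd2, 0.5864 to 0.9714 for Lck, 0.6809 to 0.8824 for Nkg7 and 0.4821 to 0.7645 for Cd3d. With 1 Normal rat left, the exact permutation test cannot pass the threshold, so it was passed by none of them there, and Cd3d passed it without IS-HA replicate 3. The depth limits Nkg7, Gzmb, Prf1 and the CD3 chains, most of which lay within a few counts of the floor.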
